A study of Homo sapiens with 24 samples.

Results

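Translation initiation and elongation factors were examined as transcripts in HAP1, a cell line with a nearly haploid genome that descends from the human leukaemia line KBM-7. Members were the annotated gene symbols beginning with EIF1, EIF2B, EIF2S2, EIF2S3, EIF2A, EIF2D, EIF3, EIF4, EIF5, EIF6 or EEF, without the EIF2AK kinase genes, EIF2S1, and 13 pseudogene, antisense, divergent or readthrough symbols. The annotation named 61 such genes. Of these, 50 had a probe set assigned to a single gene, and 49 of them passed the filter on low values, out of 17339 genes tested in all. The other 11 genes lay only on probe sets shared by several symbols and were not measured here: EEF1A1, EEF1B2, EEF1G, EIF2S2, EIF3C, EIF3CL, EIF3F, EIF4A1, EIF4A2, EIF4B and EIF4EBP3. The main eEF1A gene, the helicases of eIF4F and the beta subunit of eIF2 are therefore missing from what follows.

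The 24 arrays came from 6 lines. They were S51A, whose eIF2-alpha carries the change that removes its phosphorylated serine, the lines HRI, GCN2, PKR and PERK, each named for the eIF2-alpha kinase it lacks, and the parental line PAR. Of the arrays, 6 came from cells given the treatment titled SA100 for 2 h, 9 from cells given 200 µM lomustine for 2 h, and 9 from cells given no drug. The agent field of the SA100 arrays names lomustine, but their titles differ from it and the treatment text describes NaAsO2 at 100 µM. Their title set their group, taken here as arsenite. For the lines S51A, HRI and PAR there were 2 arrays with lomustine and 2 without drug, and each of the other 12 groups of line and treatment had 1. Nothing says that each line is more than 1 clone or that repeats A and B were separate cultures. The p-values therefore measure the spread between arrays, which may be technical. In comparisons across lines or over all treatments, that spread also holds differences between lines in their response to treatment. HAP1 grows attached, and of the blood markers on the array, 1 of 8 (HBE1, an embryonic globin gene) was above the median of all values on every array, while PTPRC, which marks blood cells, was above it on none. Of the epithelial markers 3 of 7 were above it on every array, and of the fibroblast markers 3 of 7.

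Eukaryotic initiation starts when eIF2 carries the initiator tRNA to the small ribosomal subunit, together with eIF1, eIF1A, eIF3 and eIF5. The cap-binding complex eIF4F brings the mRNA, the subunit scans to a start codon, eIF5 promotes GTP hydrolysis on eIF2, and eIF2B recharges eIF2 with GTP. Phosphorylation of eIF2-alpha by HRI, GCN2, PKR or PERK blocks eIF2B, which lowers initiation in general and lets a few stress mRNAs be translated. After initiation, eEF1A delivers tRNAs, eEF2 moves the ribosome along, and eIF5A helps at difficult stretches. All values below are log2 signal of a probe set. In RNA from whole cultures, less of a transcript per cell and fewer cells that carry it cannot be told apart.

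Under SA100, 2 of the 49 translation factor transcripts were called higher than without drug, where 2.11% of all genes were, and 47 did not pass the test. EIF1AD, which encodes a protein with a domain like that of eIF1A, was about 2-fold higher in SA100 cells than in cells without drug. EIF5, the factor that triggers GTP hydrolysis at the start codon, was higher by a smaller amount. Both were placed in the start-codon group, EIF1AD by its name only, and a role of EIF1AD in start-codon choice was not tested. No member of the eIF2B, eIF3, eIF4F or elongation groups passed the test against no drug. Under lomustine no member passed against no drug in limma, where 1.03% of all genes did. At an unadjusted p under 0.05 there were 13 of the 49 members, where 14.2% of all genes had such a p.

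The promoters of the 2 genes that rose against no drug are shown because both transcripts were higher under SA100. Each runs 5′ to 3′ over the 250 bases before a start annotated by RefSeq on GRCh38.p14, and capitals mark matches to the AP-1 motif TGANTCA. EIF1AD lies at chr11:66002158-66002407 on the minus strand, and EIF5 has windows before its first annotated start, at chr14:103333987-103334236, and before its second, at chr14:103334638-103334887, both on the plus strand.
EIF1AD: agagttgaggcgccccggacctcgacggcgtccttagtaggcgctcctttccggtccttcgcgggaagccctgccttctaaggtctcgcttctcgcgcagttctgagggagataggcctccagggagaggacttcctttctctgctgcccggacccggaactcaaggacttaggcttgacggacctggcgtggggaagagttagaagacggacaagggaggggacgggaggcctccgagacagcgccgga
EIF5, first start: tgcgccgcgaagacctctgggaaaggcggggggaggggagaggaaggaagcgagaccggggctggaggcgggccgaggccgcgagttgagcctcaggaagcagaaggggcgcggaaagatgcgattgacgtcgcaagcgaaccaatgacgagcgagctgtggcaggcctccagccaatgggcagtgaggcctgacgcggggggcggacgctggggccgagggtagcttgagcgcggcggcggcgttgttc
EIF5, second start: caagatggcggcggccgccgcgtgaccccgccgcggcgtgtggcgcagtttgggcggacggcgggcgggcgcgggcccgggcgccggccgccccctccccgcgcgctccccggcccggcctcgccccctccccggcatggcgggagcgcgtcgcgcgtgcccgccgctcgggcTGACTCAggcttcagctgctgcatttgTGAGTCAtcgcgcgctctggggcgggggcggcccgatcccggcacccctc
The window before the second EIF5 start held TGACTCA 77 bases and TGAGTCA 50 bases before that start, while the one before the first held no AP-1 match. Both held an antioxidant element, TGACGTCGC 125 bases before the first start and TGACCCCGC 228 bases before the second. The EIF1AD window held no match to any of the 6 motifs searched on both strands. Those were TGANTCA, the heat shock pairs GAANNTTC and TTCNNGAA, the antioxidant response element TGACNNNGC, the CHOP-ATF4 element TGATGNAA and the cyclic AMP response element TGACGTCA. AP-1 letters occurred before EIF3J, EIF4G1, EIF5 and EIF5AL1, 4 of the 38 members with a promoter, counted where any annotated window held them. Counted the same way, 8.06% of all 27305 genes had them. Per window, it was 4 of the members' 52 windows (7.69%) and 6.57% of all 35116. The antioxidant element occurred in 10 of the 38 members and in 13.2% of all genes. Per window, it was 12 of 52 (23.1%) and 10.9% of all. It overlaps the AP-1 motif in its letters, and a match describes the letters only.

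EIF1AD (probe set 16740645) read 8.20 in S51A, 8.20 in HRI, 7.90 in GCN2, 7.77 in PKR, 8.08 in PERK and 7.66 in PAR under SA100. The 9 lomustine arrays ran from 6.85 to 7.58 with a median of 7.17, and the 9 arrays without drug from 6.74 to 7.17 with a median of 6.97. Every SA100 array lay above every lomustine array and every array without drug, and the PAR array was the lowest of the SA100 arrays. The means were 7.97 ± 0.228 with SA100 (SD, n = 6), 7.20 ± 0.292 with lomustine (n = 9) and 6.95 ± 0.15 without drug (n = 9).

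Fitted across lines, EIF1AD was higher in SA100 than in untreated cells by 1.06 (SE 0.125, 2.08-fold, limma adjusted p = 1.45e-05). Within lines the difference ran from 0.64 in PAR to 1.34 in PERK and was positive in 6 of 6 lines. S51A, which cannot phosphorylate eIF2-alpha at that serine, showed 1.12, and HRI, which lacks the kinase known for its response to arsenite, showed 1.29. Neither line had a second SA100 array, so these line differences carry no test against PAR. Against lomustine EIF1AD was higher by 0.80 (SE 0.125, adjusted p = 0.000568), and it passed the threshold in both comparisons under all 38 alternatives run for each. The lomustine difference from no drug was 0.25 (SE 0.111, adjusted p = 0.307) and did not pass, although it passed when the table was quantile normalized again.

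BANF1, a chromatin-binding gene that RefSeq places next to EIF1AD on chromosome 11 and on the opposite strand, was read for comparison because the genes start close together. It ran from 5.10 to 5.27 with SA100, from 5.11 to 5.52 with lomustine and from 4.93 to 5.53 without drug. These ranges overlap, and the SA100 difference from no drug was -0.09 (SE 0.0964, 95% interval -0.29 to 0.12, adjusted p = 0.718).

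**Figure D1:**
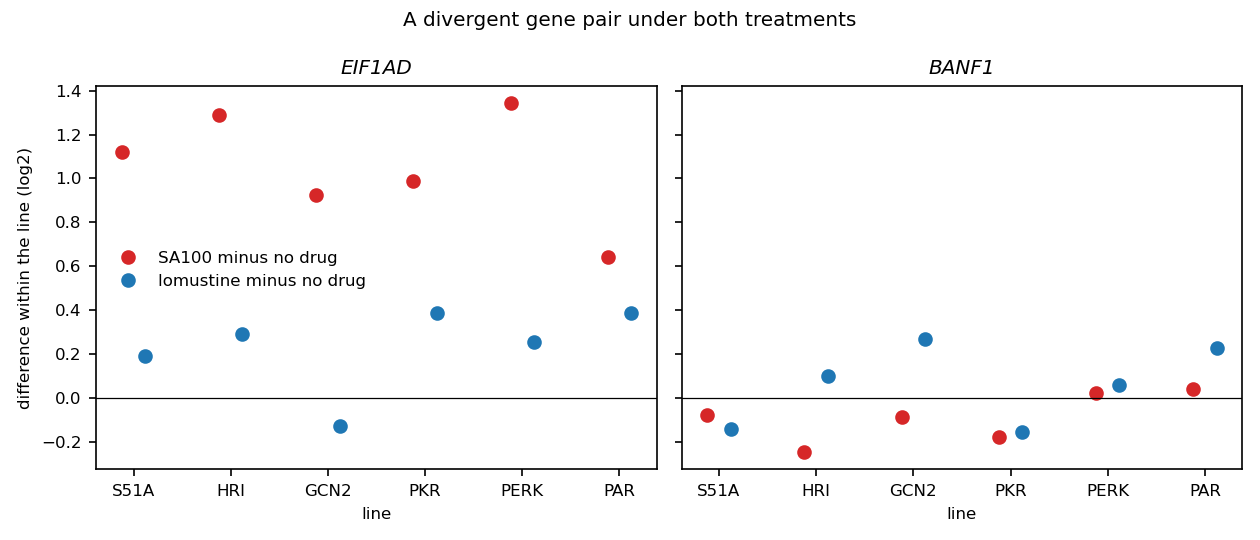
Difference of each treatment from no drug within each line, on the log2 scale, for EIF1AD (left) and its neighbour BANF1 (right); each point is 1 line, with repeats averaged. EIF1AD lies between 0.64 and 1.34 under SA100 in every line, while the SA100 points of BANF1 scatter around 0.

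EIF5 (probe set 16789178) read 7.53 in S51A, 7.57 in HRI, 7.64 in GCN2, 7.64 in PKR, 7.54 in PERK and 7.54 in PAR under SA100. Lomustine arrays ran from 7.01 to 7.43 (median 7.21), and arrays without drug from 7.02 to 7.60 (median 7.22). All SA100 arrays were above all lomustine arrays, and 1 array without drug, S51A repeat B at 7.60, lay within the SA100 range. The means were 7.58 ± 0.0519 with SA100 (n = 6), 7.20 ± 0.121 with lomustine (n = 9) and 7.25 ± 0.193 without drug (n = 9, SD throughout).

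EIF5 was higher in SA100 than in untreated cells by 0.34 (SE 0.0886, adjusted p = 0.0372), with differences from 0.03 in S51A to 0.62 in GCN2, all above 0. This call was not firm: it ended in 18 of 38 alternatives, with a highest adjusted p of 0.178 when GCN2 was left out. Among single arrays, it ended without the untreated arrays of GCN2, PKR, PERK, PAR B, HRI A or HRI B, without the lomustine array of GCN2, and without the SA100 arrays of HRI, GCN2, PKR or PERK, where the difference stayed between 0.30 and 0.34. Against lomustine EIF5 was higher by 0.39 (SE 0.0886, adjusted p = 0.0113), which held in 35 of 38 alternatives.

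Over the 49 members, 2 were called higher and 0 lower in SA100 than in untreated cells, where 2.11% of all genes were called higher and 0.952% lower. At an unadjusted p under 0.05, 8 members were higher and 3 lower, 22.4% of members against 16.5% of all genes. The median change was 0.04 for the members and 0.04 for all genes tested, with 31 members above 0 and 18 below. One member, EIF1AD, had all SA100 arrays above all untreated arrays, as did 1.11% of all genes, and no member had them all below, as 0.433% of all genes did. The other 5 members of the start-codon group ran from -0.22 for EIF1AX to 0.16 for EIF1B, and none of these passed. For EIF1, which guards against the wrong start codon, the 95% interval was -0.17 to 0.31. When the table was quantile normalized again, 4 members passed (EIF1AD, EIF3A, EIF3K and EIF5). The split of all genes called then was 521 higher and 376 lower, against 365 higher and 165 lower in the values as deposited.

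**Figure D2:**
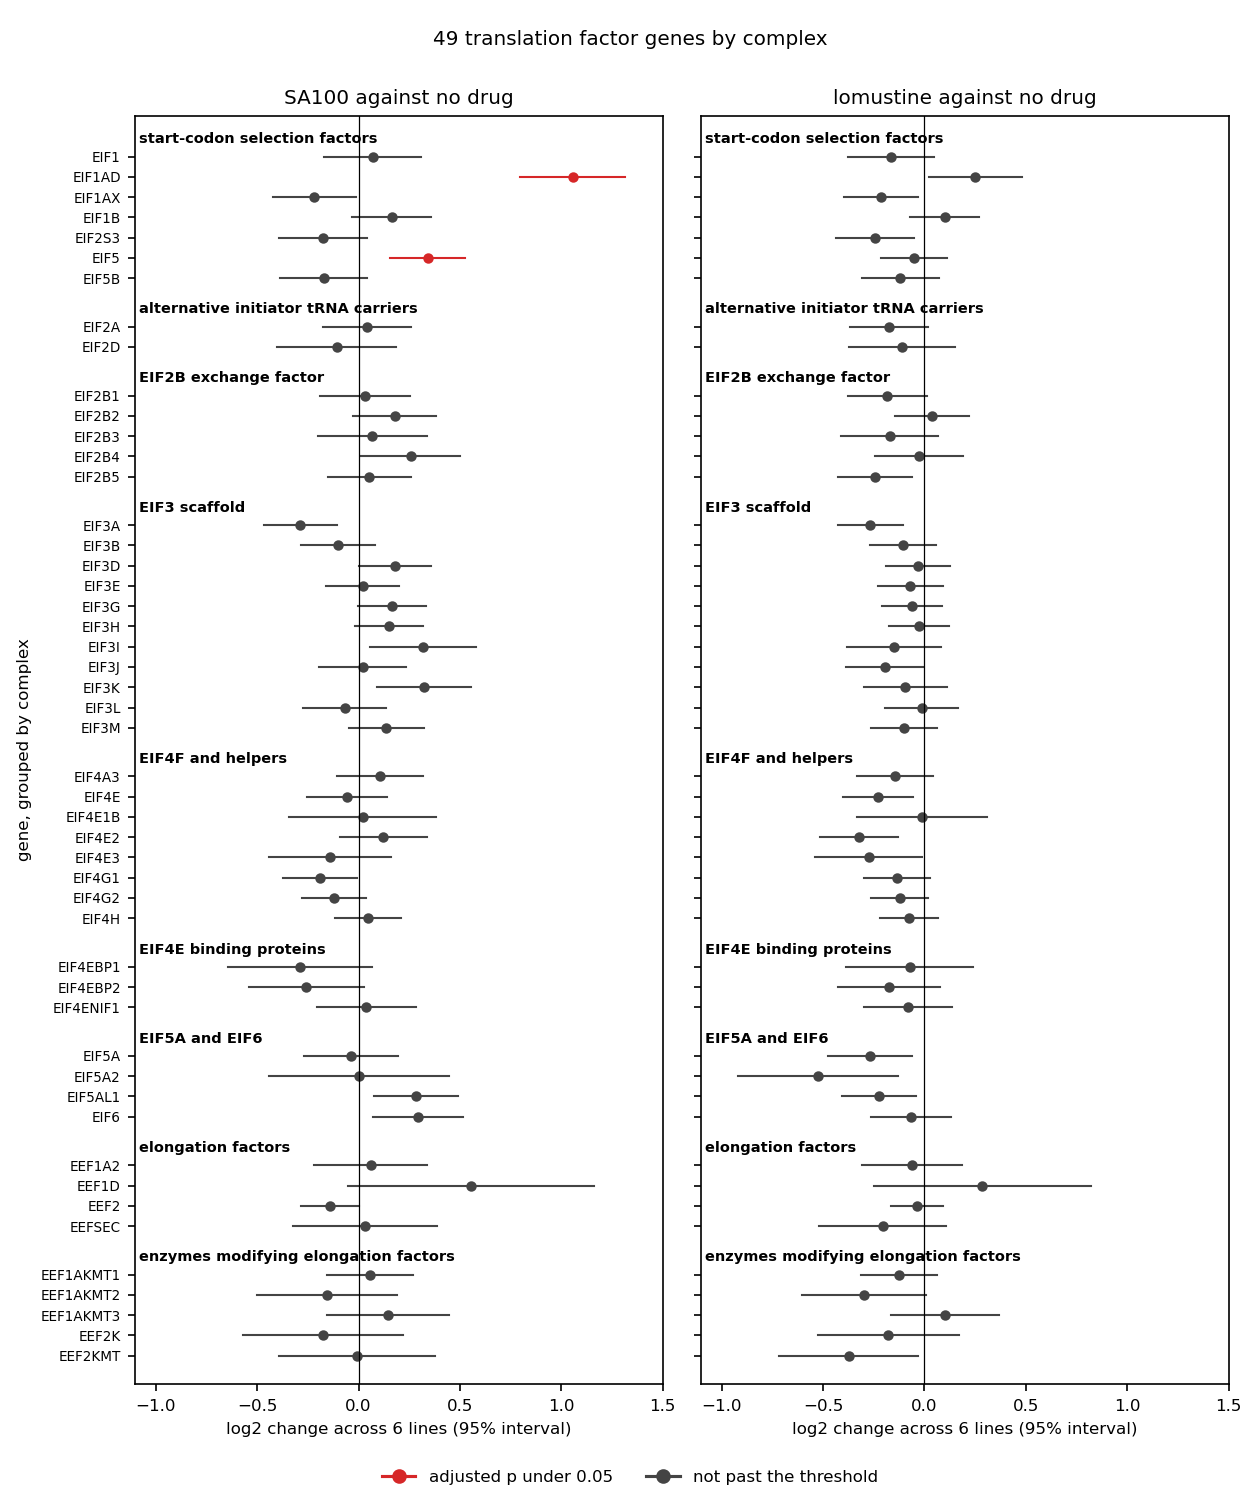
Log2 change across the 6 lines of each of the 49 members, with its 95% interval, for SA100 against no drug (left) and lomustine against no drug (right), grouped by complex; red marks an adjusted p under 0.05. EIF1AD and EIF5 are the only red points, both under SA100, and most lomustine points lie left of 0.

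The comparison of SA100 with lomustine shares its arrays with the comparisons above and asked where the treatments differed. There were 6 members higher and 0 lower in SA100 cells, where 5.48% of all genes were called higher and 0.473% lower. Beside EIF1AD and EIF5 these were EIF5AL1, EIF4E2, EIF3K and EIF3I, and each was higher in 6 of 6 lines. The members' median was 0.17, against 0.08 over all genes, and 41 members were above 0 (83.7%) as were 67.2% of all genes. At an unadjusted p under 0.05, 16 members were higher and 0 lower, 32.7% of members against 21.1% of all genes. The median over all genes was 0.04 with no filter and 0.10 with a stricter one. These shares were not matched for signal level. All SA100 arrays were above all lomustine arrays for 3 members (EIF1AD, EIF5 and EIF5AL1), which held for 1.39% of all genes, and below for none, as for 0.0923% of all genes. With the table quantile normalized again, 5 of the 6 genes passed, 29 members were above 0, and all genes split into 643 higher and 328 lower, against 950 higher and 82 lower in the values as deposited.

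EIF5AL1 (probe set 16706518), a near copy of the eIF5A gene whose probes may also read EIF5A transcripts, read 3.33 in S51A, 3.28 in HRI, 3.26 in GCN2, 3.23 in PKR, 3.20 in PERK and 3.13 in PAR under SA100. Lomustine arrays ran from 2.53 to 2.96 (median 2.74), and arrays without drug from 2.65 to 3.26 (median 2.92). SA100 and lomustine arrays did not overlap, and 2 of the 9 untreated arrays, both of S51A, lay inside the SA100 range. The SA100 difference from lomustine was 0.51 (SE 0.0999, adjusted p = 0.00487), and it passed in all 38 alternatives. The probe set sits not far above the median of all values, 2.42. EIF5A itself differed by 0.23 (SE 0.112, adjusted p = 0.247).

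EIF4E2 (probe set 16892321) encodes 4EHP, a cap-binding protein that does not bind eIF4G and takes part in repressing mRNAs. It read 5.07 in S51A, 5.19 in HRI, 4.96 in GCN2, 5.03 in PKR, 5.07 in PERK and 4.87 in PAR under SA100. Lomustine arrays ran from 4.20 to 5.03 (median 4.56), and untreated arrays from 4.73 to 5.09 (median 4.98). The lowest lomustine value came from S51A repeat B, and repeat A of the same group was the highest and lay inside the SA100 range. SA100 exceeded lomustine by 0.45 (SE 0.104, adjusted p = 0.014), with 0.40 and adjusted p = 0.0571 without the PERK SA100 array, and 0.44 and 0.11 when the untreated arrays were left out of the fit. Against no drug, EIF4E2 differed by 0.12 with SA100 (adjusted p = 0.605) and by -0.32 with lomustine (SE 0.0918, adjusted p = 0.0971), and the lomustine difference was negative in 6 of 6 lines.

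EIF3K and EIF3I encode subunits of eIF3, the scaffold that holds the small ribosomal subunit. EIF3K (probe set 16861841) read 9.36 in S51A, 9.07 in HRI, 9.19 in GCN2, 9.28 in PKR, 9.39 in PERK and 9.36 in PAR under SA100, against 8.53 to 9.20 with lomustine (median 8.89). EIF3I (probe set 16662031) read 7.58, 7.92, 7.69, 7.78, 7.86 and 7.71 in the same lines under SA100, against 7.03 to 7.84 with lomustine (median 7.23). Untreated arrays ran from 8.62 to 9.27 for EIF3K (median 8.96) and from 7.18 to 7.83 for EIF3I (median 7.38). Both genes overlapped between SA100, lomustine and no drug, and neither passed against no drug under either treatment. Within lines, the SA100 difference from no drug ran from 0.14 to 0.66 for EIF3K and from -0.0017 to 0.59 for EIF3I. The lomustine difference ran from -0.39 to 0.29 and from -0.35 to 0.02. The differences that follow are those between SA100 and lomustine. The differences were 0.42 for EIF3K (SE 0.111, adjusted p = 0.0286) and 0.47 for EIF3I (SE 0.125, adjusted p = 0.0302). They passed in 26 and 24 of 38 alternatives, and without the PERK SA100 array they were 0.36 and 0.41 with an adjusted p of 0.108 for each. EIF3K also lost the call without the PERK lomustine array or the S51A or PKR SA100 array, and EIF3I without the PKR or PERK lomustine array or the HRI, GCN2 or PKR SA100 array.

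**Figure D3:**
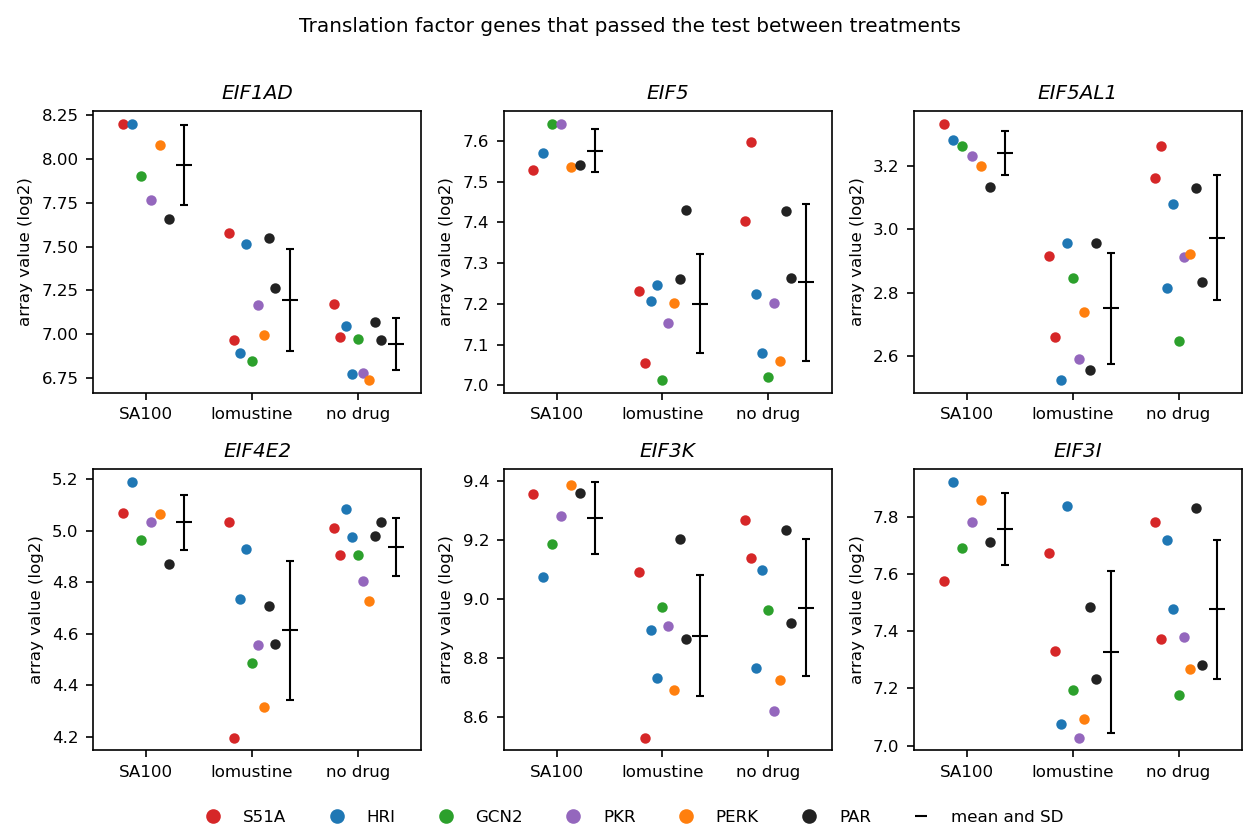
Log2 value of every array for the 6 members that differed between SA100 and lomustine, by treatment (SA100, lomustine, no drug) and coloured by line; bars give mean and SD. EIF1AD with SA100 lies above both other treatments in every array, and EIF5 and EIF5AL1 above every lomustine array.

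Across 11 measured eIF3 subunits, 2 were higher in SA100 than in lomustine cells and 9 did not pass, with a median of 0.21. Of all genes, 5.48% were called higher in that comparison, and their median was 0.08. EIF3A, the largest subunit and a core of the scaffold, read 9.36 in S51A, 9.33 in HRI, 9.06 in GCN2, 8.94 in PKR, 9.09 in PERK and 8.85 in PAR under SA100. It ran from 9.03 to 9.36 with lomustine (median 9.08) and from 9.21 to 9.53 without drug (median 9.40). Treated arrays were mostly below untreated arrays, with overlap. The difference from no drug was -0.29 with SA100 (SE 0.086, adjusted p = 0.0794) and -0.27 with lomustine (SE 0.0762, adjusted p = 0.0986), each negative in 6 of 6 lines and neither past the threshold. Its F test over the 3 treatments passed (adjusted p = 0.0457), as did those of EIF1AD (4.18e-05), EIF5AL1 (0.0115), EIF5 (0.0195) and EIF4E2 (0.0201). These were 5 members, where 5.81% of all genes passed and 22.4% had an unadjusted p under 0.05. Only EIF1AD and EIF5AL1 passed with arrays centred on their medians.

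In the group of eIF4F and its helpers, 1 of 8 measured members was called higher in SA100 than in lomustine cells, where 5.48% of all genes were. It was EIF4E2, a cap-binding protein that does not bind eIF4G, while the eIF4F subunits EIF4E and EIF4G1 did not pass. EIF4E, the cap-binding subunit, had a lomustine difference from no drug of -0.23 (SE 0.084, adjusted p = 0.212), and EIF4G1, the scaffold of the complex, an SA100 difference of -0.19 (SE 0.0883, adjusted p = 0.285). In the eIF5A and eIF6 group, 1 of 4 passed between the treatments, beside the same share of all genes. EIF6, which keeps ribosomal subunits apart, was just outside the threshold with 0.36 (SE 0.107, adjusted p = 0.0503), and EIF5A2, a tissue-restricted form of eIF5A, had the widest difference of that group at 0.53 but with a larger error (SE 0.213, adjusted p = 0.153). EIF6 passed in 9 of 38 alternatives. They were no filter, a stricter filter, the mean of all probe sets, leaving out line PAR, leaving out PAR lomustine A and S51A lomustine B singly or together, and leaving out PAR none B or HRI SA100.

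The eIF2B complex, the exchange factor that phosphorylated eIF2 inhibits, had 5 of 5 subunits measured and none past the threshold in any comparison of treatments. EIF2B5, its catalytic subunit, came closest. It ran from 5.38 to 5.72 with SA100 (median 5.53), from 4.91 to 5.42 with lomustine (median 5.22) and from 5.16 to 5.74 without drug (median 5.47), with overlap between all of these. SA100 exceeded lomustine by 0.30 (SE 0.0984, adjusted p = 0.0769). Of the proteins that can deliver initiator tRNA without eIF2, EIF2A had the smaller p, with an F test over treatments of adjusted p = 0.299. Its median was 7.77 with SA100, 7.56 with lomustine and 7.74 without drug, with SDs of 0.103, 0.199 and 0.231.

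The eIF4E binding proteins hold back cap-dependent initiation when mTORC1 is inactive, and none of the 3 measured passed. EIF4EBP2 ran from 8.20 to 8.45 with SA100 (median 8.34), from 7.40 to 8.81 with lomustine (median 8.49) and from 8.05 to 8.90 without drug (median 8.69). Its SA100 difference from no drug was -0.26 (SE 0.136, adjusted p = 0.358). EIF4EBP1, whose transcription ATF4 is known to raise, differed from no drug by -0.29 with SA100 (SE 0.171, 95% interval -0.64 to 0.07) and by -0.07 with lomustine (95% interval -0.39 to 0.24).

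None of the 4 measured elongation factors passed. EEF2, the translocase, ran from 10.5 to 10.7 with SA100 (median 10.6), from 10.6 to 10.8 with lomustine (median 10.8) and from 10.7 to 10.8 without drug (median 10.8). The SA100 arrays were below the untreated mean of their line in 6 of 6 lines, by -0.03 to -0.29, but the fitted difference of -0.14 (SE 0.0688, adjusted p = 0.311) did not pass. EEF1D, an exchange factor subunit for eEF1A, has 2 probe sets of its own that disagreed over the 24 arrays (r = -0.503), so its change is uncertain. Of the 5 enzymes that modify elongation factors none passed, and EEF2KMT, which methylates eEF2, had the smallest p over treatments (F test, adjusted p = 0.253). Its lomustine arrays ran from 5.46 to 6.70, against 6.35 to 7.13 without drug, and the values of 5.46 (S51A repeat B) and 5.80 (PERK) were the lowest.

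Lomustine left 0 of 49 members past the threshold against no drug in limma, where 1.03% of all genes were called. At an unadjusted p under 0.05, 1 member was higher and 12 lower, which is 26.5% of members and 14.2% of all genes. The members leaned downward: 44 of 49 were below 0 (89.8%), against 60.9% of all genes, with a median of -0.12 against -0.04. The median over all genes moved with the filter, from -0.01 with no filter to -0.06 with a stricter one. That of the members stayed at -0.12. These shares were not matched for signal level. No member had all lomustine arrays above or all below the untreated arrays, as 0.0634% and 0.0923% of all genes did. Quantile normalization made this lean smaller, and centring arrays on their medians did not. Leaving out the 2 lomustine arrays with the lowest members' medians also made it smaller, as their removal had to. Those arrays, S51A lomustine B and PAR lomustine A, lay more than 1 from the median of the others in 8.72% and 3.38% of probe sets. The next highest share was 3.11%, in HRI without drug, repeat A. With arrays centred, 44 of 49 were below 0 and the median was -0.14. With the table quantile normalized again, 29 of 49 were below 0, the median was -0.02, and all genes called split into 101 higher and 86 lower, against 43 higher and 135 lower in the values as deposited. Without PAR lomustine A and S51A lomustine B, 38 of 49 were below 0 and the median was -0.07. EIF4E2 passed when S51A lomustine A was left out.

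The shift of each array from the untreated mean of its line showed where the lean lay. The members' median was -0.44 in S51A lomustine B, with 46 of 49 below 0, and -0.27 in PAR lomustine A, with 37 below 0. All genes tested shifted by -0.23 and -0.16 in these arrays. In the other 7 lomustine arrays the members' median lay between -0.09 and -0.02, with 28 (HRI B) to 35 (HRI A) of 49 below 0. SA100 arrays ran from -0.11 in PAR to 0.21 in PERK, with 0.18 in PKR.

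**Figure D4:**
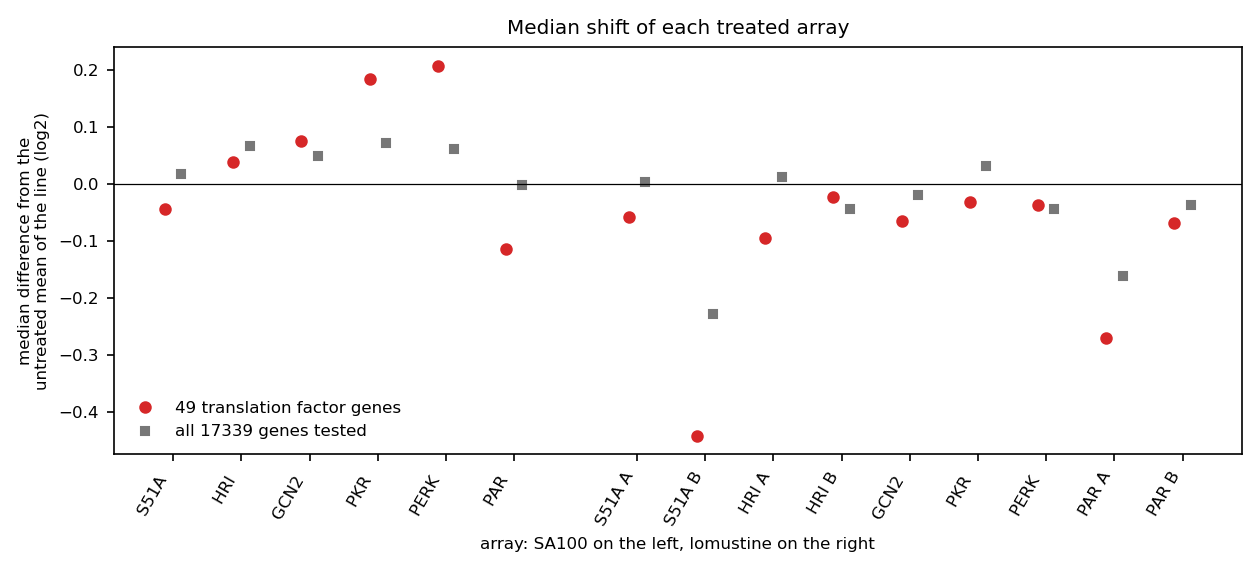
Median difference of each treated array from the untreated mean of its line, on the log2 scale, for the 49 members (red circles) and for all 17339 genes tested (grey squares), SA100 arrays left and lomustine arrays right. S51A lomustine B (-0.44) and PAR lomustine A (-0.27) stand below the other lomustine arrays, which lie between -0.09 and -0.02.

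Within single lines, lomustine against no drug called 0 of 49 members in PAR, S51A and HRI in limma, and 2, 1 and 0 members had an unadjusted p under 0.05, as did 2.9%, 4.08% and 1.49% of all genes. Calls over all genes made up 0.0%, 0.0115% and 0.0%. The lomustine responses of S51A and of HRI minus that of PAR also called 0 members and 0.0% of all genes in each; 0 members had an unadjusted p under 0.05, against 0.629% of all genes for S51A and 0.894% for HRI. The smallest p among these differences was that of EIF4E3, a further cap-binding eIF4E relative, whose lomustine response in HRI exceeded that in PAR by 0.83 (SE 0.44, 95% interval -0.14 to 1.80). These fits rest on 6 duplicated groups. Leaving out S51A lomustine A leaves repeat B alone in that group. In repeat B, EEF2KMT read 5.46, EEF1AKMT2 4.68 and EEFSEC 5.16, each the lowest of the S51A arrays. That array lay more than 1 from the median of the other arrays in 8.72% of all probe sets. The next highest such share was 3.38%, in PAR lomustine A, so these low values are not particular to the members.

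Between the lines, 1 member differed. EIF1AX, the X-linked gene of eIF1A, which steadies the scanning ribosome, was higher in S51A than in PAR. The S51A arrays (probe set 17109706) read 8.62 with SA100, 8.83 and 8.51 with lomustine, and 8.91 and 8.87 without drug. The PAR arrays read 7.96 with SA100, 7.70 and 8.17 with lomustine, and 8.52 and 8.38 without drug. In each treatment the S51A arrays were above those of PAR, while over all treatments the lowest S51A array (8.51) lay just under the highest PAR array (8.52). The difference over all treatments was 0.60 (SE 0.118, 1.52-fold, adjusted p = 0.00456). That made 1 of 49 members, where 1.29% of all genes were called higher in S51A and 0.894% lower. At an unadjusted p under 0.05, 3 members were higher and 3 lower, where 9.74% of all genes had such a p.

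The EIF1AX call held in 31 of 32 alternatives and ended when only the arrays without drug were used, with a difference of 0.44 (adjusted p = 0.935). The mean over arrays was 8.75 ± 0.172 in S51A (n = 5), 8.67 ± 0.0842 in HRI (n = 5), 8.48 ± 0.105 in PERK (n = 3), 8.47 ± 0.206 in PKR (n = 3), 7.87 ± 0.114 in GCN2 (n = 3) and 8.15 ± 0.327 in PAR (n = 5, SD throughout). The arrays of S51A overlapped those of HRI, those of PERK overlapped PKR, those of PKR overlapped PAR and those of GCN2 overlapped PAR, while HRI (8.59 to 8.79) and PERK (8.37 to 8.58) did not overlap. All HRI arrays were above all PAR arrays, but the difference of 0.53 had an adjusted p of 0.0693, and it passed without S51A lomustine B. The share of all genes with such a separation between lines was not counted. GCN2 was lower than PAR by -0.26 in the fit, which did not pass (adjusted p = 1.0).

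EIF2S3, the X-linked gene of eIF2-gamma, the subunit that binds initiator tRNA and GTP, differed between S51A and PAR by 0.31 (SE 0.124, adjusted p = 0.313). Its arrays ran from 5.83 to 6.46 in S51A and from 5.35 to 6.05 in PAR. Over the 612 X-linked genes tested, the median difference between S51A and PAR was 0.08, against -0.02 over all genes, with 3.92% called higher and 1.63% lower. The median over X-linked genes was above that of all genes in each of the other lines too, namely HRI (0.14 against -0.02), GCN2 (0.03 against 0.0044), PKR (0.08 against -0.01) and PERK (0.06 against -0.02). All 5 comparisons share the PAR arrays. Beside EIF1AX, 1 of 7 epithelial markers (EPCAM, higher by 2.15) and 1 of 5 tested fibroblast markers (VIM, -0.89) passed between S51A and PAR. The part of these in the EIF1AX difference was not tested.

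**Figure D5:**
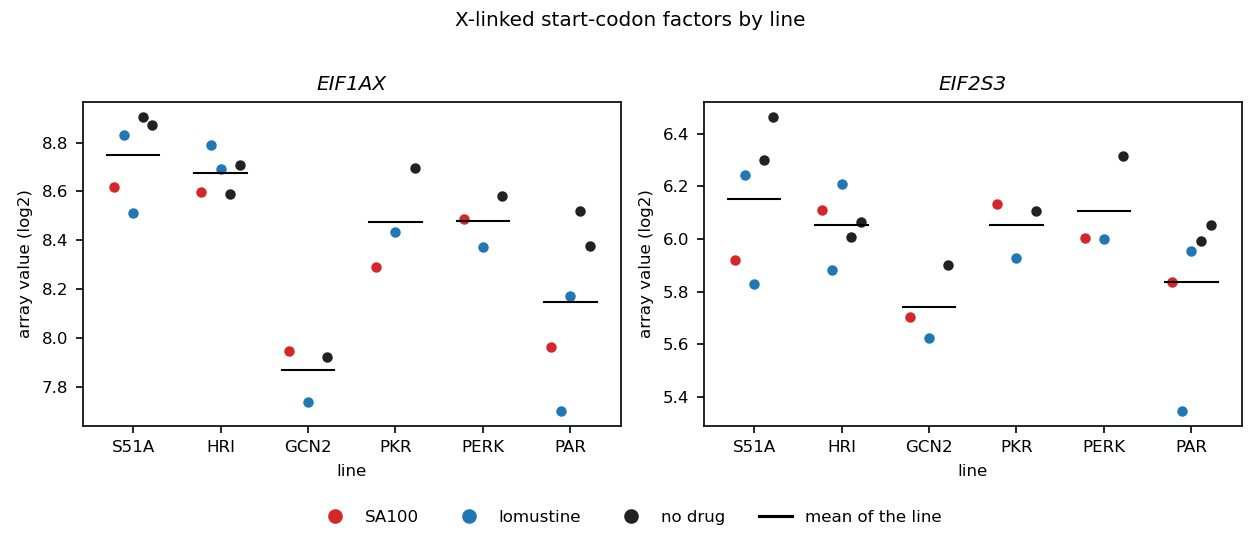
Log2 value of every array for EIF1AX (left) and EIF2S3 (right) by line, coloured by treatment, with the mean of each line as a bar. EIF1AX sits highest in S51A (mean 8.75) and HRI (8.67), and lowest in PAR (8.15) and GCN2 (7.87).

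In HRI, GCN2, PKR and PERK, 0 of 49 members passed against PAR in limma. At an unadjusted p under 0.05 there were 4, 1, 2 and 4 members, where 7.61%, 4.08%, 3.03% and 5.63% of all genes had such a p. Of all genes, 0.144%, 0.0692%, 0.0% and 0.179% were called. The closest was EEF1A2, the tissue-restricted form of eEF1A, in PERK. Its PERK arrays read 7.75 with SA100, 7.48 with lomustine and 7.60 without drug, against 7.97 to 8.63 over the 5 PAR arrays. These did not overlap, but the share of all genes without overlap between these lines was not counted. The difference was -0.74 (SE 0.185, adjusted p = 0.146), and it passed without S51A lomustine B. EIF4EBP1 in HRI differed by -0.58 (SE 0.203, adjusted p = 0.378). The F test over the 6 lines called EIF1AX alone (adjusted p = 0.00104), where 3.59% of all genes passed. Without drug, S51A and HRI each called 0 members against PAR, with 0 at an unadjusted p under 0.05, where 0.323% and 0.0% of all genes were called and 2.67% and 1.79% had such a p.

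Other genes of translation were read in the same fits. Of all genes, 2.11% were called higher and 0.952% lower with SA100 than without drug, 1.03% were called with lomustine, and 5.48% were higher and 0.473% lower in SA100 than in lomustine cells. Of 7 tested termination and recycling genes, ABCE1, the ATPase that splits ribosomes after termination, was lower with lomustine (-0.39, SE 0.0918, adjusted p = 0.0403), and ETF1, the release factor that reads stop codons, was higher in SA100 than in lomustine cells (0.34, SE 0.0866, adjusted p = 0.0238). Of 10 tested scanning and non-canonical helpers, GCN1, which couples stalled ribosomes to GCN2, was lower with SA100 than without drug (-0.54, SE 0.144, adjusted p = 0.0413). DENR, which frees tRNA from small subunits, was higher in SA100 than in lomustine cells (0.51, SE 0.12, adjusted p = 0.0153), as was DDX3X, an RNA helicase, by 0.39 (adjusted p = 0.022). Of 6 poly(A)-binding genes and partners, 1 was lower with SA100 and 0 with lomustine.

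DOHH, the hydroxylase that completes hypusine on eIF5A, was higher in SA100 than in lomustine cells by 0.60 (SE 0.119, adjusted p = 0.00534), the single call among 8 hypusine and diphthamide genes. Of 16 tested genes that signal to the cap-binding complex, 2 were higher with SA100 and 1 lower than without drug. The lower one was LARP1, a repressor of terminal oligopyrimidine mRNAs (-0.39, SE 0.0916, adjusted p = 0.0203). The higher ones, the mTORC1 inhibitors DDIT4 and SESN2, changed by 2.66 (SE 0.308) and 2.43 (SE 0.204), against 1.06 for EIF1AD. RHEB, the GTPase that activates mTORC1, was higher in SA100 than in lomustine cells by 0.35 (SE 0.0984, adjusted p = 0.0371). Among 6 tested mitochondrial translation factors and 4 tested factors with terminal oligopyrimidine mRNAs, 0 passed in limma in any of these comparisons of treatments, with at most 2 and 1 at an unadjusted p under 0.05.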

How the data were processed

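Total RNA was labelled with biotin and hybridised to 24 Affymetrix arrays, per the labels. The deposited table holds log2 values processed with RMA and the R package affy, per the submitters' processing notes; versions, filters and genome build are not given in the sources used here. Array medians ran from 2.34 to 2.58, so the deposited arrays do not share a single distribution. Of 53617 probe sets, the 23558 with 1 annotated symbol gave 22109 genes, each read from its highest-mean probe set. Genes reaching the median of all values (2.42) on 2 or more of the 24 arrays were tested (17339). A stricter filter asked for 12 arrays. Members and all genes were compared without matching them for signal level. No read depth exists for arrays, and their number limits precision.

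Tests used limma 3.58.1 in R 4.3.3, on both sides of 0; p-values were adjusted by Benjamini-Hochberg across the 17339 genes, with a threshold of 0.05. Treatments and lines were compared in a model with a term for each (residual degrees of freedom: 16). Its residual holds differences between lines in their response as well as the spread between repeats. Comparisons within duplicated lines used 1 mean per group of line and treatment (residual degrees of freedom: 6, all from duplicated groups; the 12 single-array groups are assumed to vary like them). Letters were not used to pair arrays, since nothing says that they mark a shared culture or day. Differences between A and B in lomustine and untreated arrays correlated over genes with r = -0.388 (S51A), -0.561 (HRI) and 0.334 (PAR). The fits without a block treat repeats as independent, which these values do not show. The fits were tested on simulated data with independent noise on each array. That noise held no array-wide shift and no dependence between repeats, so the simulation does not cover these.

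Members, complexes and the other lists were chosen with earlier results of these data known. Array values are given for members past the threshold (at most 12 between treatments, 5 in each direction per line), and otherwise for the smallest p of a complex; from the other lists, up to 3 genes past the threshold. Alternatives were other filters, probe sets, scalings and priors, fewer arrays or lines, and a replicate block. Promoters came from RefSeq tables on GRCh38.p14.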

Additional observations from a re-analysis of the deposited data

Results flagged for a closer look

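EIF4EBP2, which encodes a repressor of cap-binding eIF4E, read 7.40 in S51A lomustine B, the lowest of 9 lomustine arrays, while the other 8 ran from 8.13 to 8.81. The gap to the nearest array was 0.519 of the whole range, above the critical value of 0.493 for 9 arrays. It was the single array set apart among 45 groups of arrays over 15 genes, where chance sets apart about 1 group in 20. The median of the 49 members in this array was also shifted, by -0.44.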

How the results depend on the processing

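The number of all genes called moved between alternatives. For SA100 against lomustine it was 950 higher and 82 lower as deposited. Without the PERK SA100 array it was 397 higher and 21 lower, and without S51A lomustine A 1158 higher and 78 lower. Counts below are members past the threshold, and no call changed sign. With the table quantile normalized again they were 1 for lomustine against no drug (EIF1AD; 0 in the values as deposited), 4 for SA100 against no drug (2 as deposited), 1 for HRI against PAR (EIF1AX; 0) and 3 for any difference among lines (EEF1A2, EIF1AX and EIF2S3; 1). A trended robust prior gave 1 for lomustine (EIF3A) and 1 for HRI (EIF1AX). Centred arrays gave 1 for SA100 against no drug and 2 for any difference among treatments (5 as deposited). Only the arrays of the treatments compared gave 1 for SA100 against no drug and 2 for SA100 against lomustine (6 as deposited). Only arrays without drug gave 0 for S51A against PAR (1 as deposited) and 0 for any difference among lines. With neither S51A lomustine B nor PAR lomustine A in the fit there were 4 for SA100 against no drug, 1 for PERK against PAR (EEF1A2; 0) and 2 for any difference among lines.

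Leaving out single lines gave 1 to 2 members for SA100 against no drug, 2 to 5 for SA100 against lomustine and 1 to 5 for any difference among treatments. Leaving out single arrays gave 0 to 1 for lomustine against no drug and 1 to 4 for SA100 against no drug. It gave 3 to 8 for SA100 against lomustine and 2 to 7 for any difference among treatments. Between lines it gave 1 to 1 for S51A against PAR, 0 to 1 for HRI and for PERK, and 1 to 2 for any difference. All genes called moved in the same settings. For SA100 against no drug they were 365 higher and 165 lower as deposited. Without S51A lomustine B they were 575 higher and 358 lower, and without the PERK SA100 array 177 higher and 57 lower. Without line PERK they were 161 higher and 45 lower. With the replicate block, 0 members passed for lomustine in PAR, S51A and HRI and for both differences of response from PAR, as without it; 0, 1, 0, 0 and 0 had an unadjusted p under 0.05. The crossed replicate block, chosen after seeing the data, also gave 0 in each.

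Single array groups, the 2 arrays that stand apart and the unknown relation between repeats limit every line-specific value, and 11 members, EEF1A1 among them, have no probe set of their own. The EIF5AL1 probe set reads close to the median of all values, and no background measure was used here.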
